A study of Homo sapiens with 6 samples.

Results

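The small leucine-rich proteoglycans and lecticans are secreted proteoglycans of the extracellular matrix, and their transcripts were examined in LX-2 cells, an established line of human hepatic stellate cells. The members were chosen by symbol, and the symbols DCN, BGN, LUM, FMOD, PRELP, ASPN, OGN, PODN, VCAN and ACAN each matched 1 row of the deposited gene table, 10 of its 60748 genes. Of these, 8 encode small leucine-rich proteoglycans (SLRPs) and 2 encode lecticans. A count was recorded in any library for 9 of the 10, and 6 passed the expression filter and were tested.

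LX-2Vector cells (n = 3) carried the empty lentiviral vector and LX-2FAP cells (n = 3) stably overexpressed fibroblast activation protein α (FAPα) from the same vector backbone, in which the study's methods name a ubiquitin promoter, EGFP and puromycin resistance. Both lines were grown in DMEM with serum, and the labels give 24 hours of culture for every library. The methods speak of stable clones selected with puromycin, without giving their number for either line, and neither they nor the labels say whether replicates came from separate cultures, so p-values measure only the spread between these samples, which may be technical. The comparison addresses how these lines differed. An effect of FAPα and another difference between the lines cannot be told apart.

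SLRPs have a short protein core of leucine-rich repeats, and several carry chondroitin, dermatan or keratan sulfate chains. They bind fibrillar collagens and set the thickness and spacing of fibrils, and decorin and biglycan also bind transforming growth factor β and cell surface receptors. Lecticans are larger, bind hyaluronan at one end through a link module and carry many chondroitin sulfate chains, as in cartilage, where aggrecan is the main one, and in provisional matrix, where versican is. In injured liver, hepatic stellate cells become matrix-producing myofibroblasts, and decorin, biglycan, lumican and versican are among the proteoglycans laid down in scars.

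Total counts ran from 17355700 to 26352060 per library. FAP, given here in normalized CPM (counts scaled to library size), rose from 2.28 ± 0.379 in LX-2Vector libraries to 723.2 ± 112.3 in those of LX-2FAP (SD over 3), which checks the labels. Of 14 stellate cell markers, 7 had a mean above 1 FPKM (counts scaled to library size and gene length), led by VIM at 312.1 FPKM, while LRAT was at 0 in all libraries and DES had 0 to 1 counts. The 7 hepatocyte markers summed to 13.1 to 15.04 CPM in the LX-2Vector libraries and to 10.6 to 11.8 CPM in LX-2FAP, nearly all from SERPINA1, with ALB at 1 to 3 counts and TTR at 0. The 6 endothelial markers summed to 6.95 to 8.74 and 5.23 to 6.87 CPM, with CLEC4G at 0. The 5 leukocyte markers summed to 11.3 to 14.9 and 12.8 to 16.7 CPM, with CD3E at 2 to 10 counts, and the 4 epithelial markers to 4.47 to 7.58 and 3.63 to 5.67 CPM, with EPCAM at 0 to 7 counts. The hepatocyte and endothelial sums were thus lower in LX-2FAP with no overlap, and their part in the values below was not tested. In bulk RNA, fewer cells expressing a gene and less RNA per cell cannot be told apart.

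The 9 members with counts were all at low levels. Their counts summed to 245 to 371 per library, 0.00134% to 0.00175% of all counts, and none had a mean above 1 FPKM over the 6 libraries. Measured per length, BGN, which encodes biglycan, was the highest in LX-2Vector at 0.655 ± 0.0556 FPKM. VCAN (versican) had 0.540 ± 0.0723 FPKM, OGN (osteoglycin or mimecan) 0.526 ± 0.154 FPKM, ASPN (asporin) 0.494 ± 0.0571 FPKM and LUM (lumican) 0.395 ± 0.117 FPKM (SD, n = 3 each).

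These 5 genes formed an upper group, and the rest lay well below it. DCN, which encodes decorin, the best known SLRP, had 0.108 ± 0.0154 FPKM in LX-2Vector. This value depends on the long gene length described below. PODN (podocan) had 0.0687 ± 0.00939 FPKM, PRELP (prolargin) 0.0666 ± 0.00792 FPKM and ACAN (aggrecan) 0.0251 ± 0.0104 FPKM (SD, n = 3 each). FMOD, which encodes fibromodulin, had no count in any library, and a count of 0 allows up to 3 counts over the 6 libraries, or 0.0234 CPM.

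Neighbours in this order whose ranges over the 3 LX-2Vector libraries overlapped were VCAN and OGN, OGN and ASPN, ASPN and LUM, and PODN and PRELP, so their order is not resolved. BGN was first by its mean and its range did not overlap that of VCAN, but it overlapped that of OGN, which exceeded BGN in LX-2Vector replicate 3 (0.685 against 0.632 FPKM). No overlap was seen either between the ranges of LUM and DCN, DCN and PODN, or PRELP and ACAN. BGN at its mean exceeded 35.7% of the protein-coding genes with a count, VCAN 34.9%, LUM 32.0%, DCN 22.3% and ACAN 12.8%.

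**Figure D1:**
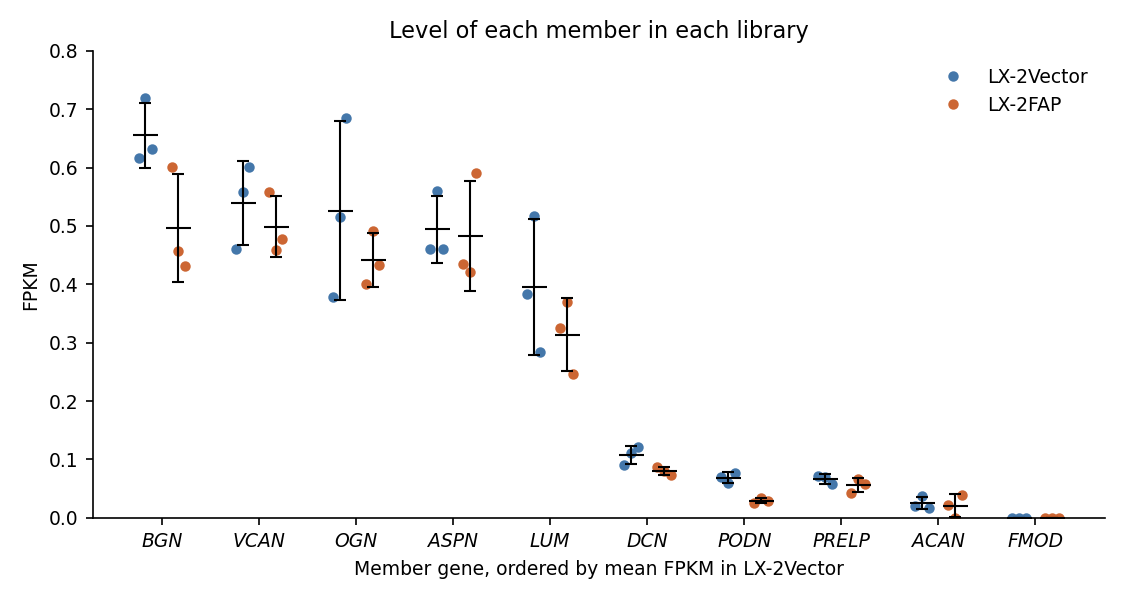
FPKM of each member (vertical axis) in each library, by group, with members along the horizontal axis in the order of their LX-2Vector mean, where points are libraries, long ticks are group means and bars are SD (n = 3). BGN, VCAN, OGN, ASPN and LUM lie between 0.247 and 0.719 FPKM, DCN and the members to its right lie at or under 0.121 FPKM, and FMOD is at 0.

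The order depended on gene length. By CPM, which is not divided by length and so does not compare levels between genes, VCAN came first, followed by OGN, BGN and DCN. The deposited values divided DCN counts by a length of 12941 bases, against 2671 for LUM and 2404 for BGN. The merged exons of all transcripts in GENCODE release 29 span 12847 bases for DCN, 3008 for LUM and 2453 for BGN. For OGN the length used was 4020 bases against 3321 in that release. The gene models used for counting thus differ from that release for some genes. DCN and BGN had similar read numbers (25 to 33 and 30 to 39 counts in LX-2Vector) with a wide gap in FPKM. The low FPKM and rank of DCN thus depend on the length of 12941 bases, and a shorter length would raise both. Which DCN transcripts these cells express was not tested.

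Several members lie side by side in the genome (GENCODE release 29, GRCh38). LUM (ENSG00000139329, chr12:91102629-91111831) and DCN (ENSG00000011465, chr12:91140484-91183123) share the minus strand of chromosome 12 with KERA and EPYC, 2 other SLRP genes that had 0 counts in all libraries. FMOD (ENSG00000122176, chr1:203340628-203351758, minus strand) and PRELP (ENSG00000188783, chr1:203475828-203491352, plus strand) lie near OPTC, which had 0 to 5 counts. The neighbours thus differed in detection, with PRELP at 6 to 11 counts where FMOD had 0. PODN (ENSG00000174348, chr1:53062052-53085502), VCAN (ENSG00000038427, chr5:83471465-83582303), ACAN (ENSG00000157766, chr15:88803442-88875354) and BGN (ENSG00000182492, chrX:153494939-153509554) lie on plus strands away from other members, with the link protein gene HAPLN3 next to ACAN. BGN overlaps HAUS7, a gene on the opposite strand that had 23 to 43 counts, with no shared exon base in this annotation. The part of unspliced HAUS7 RNA in the BGN counts was not tested.

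OGN (ENSG00000106809, chr9:92383967-92404696) and ASPN (ENSG00000106819, chr9:92456205-92482506) form a row on the minus strand of chromosome 9 with OMD and ECM2. Unlike the chromosome 12 row, every gene of this row was detected, with ECM2 at 0.526 FPKM and OMD at 0.242 FPKM over the 6 libraries. All 4 lie within CENPP, a centromere protein gene on the opposite strand that had 436 to 655 counts (2.41 to 2.70 FPKM). No exon base of OGN or ASPN is shared with CENPP in this annotation. The lengths used for the deposited values differ from it for OGN (4020 against 3321 bases) and OMD (4324 against 2449), but not for ASPN (2470). Exon overlap in the gene models used for counting was thus not tested. Use of strand in counting is not stated in the sources used here, so reads from unspliced CENPP RNA and from these 4 genes could not be told apart, and the part of CENPP in their counts was not tested.

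The promoters of the members differed widely in CG content. Of the 10 members, 8 had an entry among RefSeq promoters (GRCh38.p14). The 250 bases before each RefSeq start were searched for CG, the letters of a CpG site, which read the same on both strands. RefSeq and GENCODE starts differ for some members. The windows of VCAN (chr5:83471494-83471743) and FMOD (chr1:203351123-203351372) lie inside the GENCODE genes given above. Those of PODN and BGN run past the GENCODE start. At least 1 CG was held by 96.1% of 18348 promoters of the same length, and by 6 of the 8 members. OGN and PRELP had none. ASPN had 3, FMOD 9, VCAN 12, BGN 16, PODN 23 and ACAN 28. The upstream sequences of 4 members are printed to show the range, from none in OGN and PRELP to many in BGN and ACAN, with CG in capitals and all other bases in lower case, 5′ to 3′ on the strand of the gene. They cover chr9:92404700-92404949 (minus strand) for OGN, chr1:203475556-203475805 (plus) for PRELP, chrX:153494730-153494938 (plus, 209 bases with 13 CG, the stretch before the GENCODE gene) for BGN and chr15:88803186-88803435 (plus) for ACAN.
OGN: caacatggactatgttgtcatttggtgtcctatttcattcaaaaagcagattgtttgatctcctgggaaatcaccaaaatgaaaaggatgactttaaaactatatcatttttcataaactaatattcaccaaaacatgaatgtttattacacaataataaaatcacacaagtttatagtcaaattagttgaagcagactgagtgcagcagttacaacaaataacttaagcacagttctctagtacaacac
PRELP: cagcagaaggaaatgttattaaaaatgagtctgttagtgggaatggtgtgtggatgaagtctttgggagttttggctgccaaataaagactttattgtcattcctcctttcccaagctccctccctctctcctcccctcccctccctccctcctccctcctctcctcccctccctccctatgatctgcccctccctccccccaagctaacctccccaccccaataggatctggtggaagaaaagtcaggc
BGN: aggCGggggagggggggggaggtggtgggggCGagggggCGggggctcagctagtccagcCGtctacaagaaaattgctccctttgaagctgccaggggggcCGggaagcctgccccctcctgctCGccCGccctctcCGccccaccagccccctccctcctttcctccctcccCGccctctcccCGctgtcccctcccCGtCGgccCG
ACAN: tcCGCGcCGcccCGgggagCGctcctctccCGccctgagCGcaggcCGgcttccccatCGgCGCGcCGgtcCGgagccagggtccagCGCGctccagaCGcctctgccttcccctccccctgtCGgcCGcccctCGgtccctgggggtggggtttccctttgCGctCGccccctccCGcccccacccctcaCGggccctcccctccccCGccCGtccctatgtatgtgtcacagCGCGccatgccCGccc

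Corrected for base content, the number of CG over the number expected was above 0.6 in 2 of the 8 members (PODN with 0.744 and ACAN with 0.829), or 25.0%, against 58.4% of all promoters. The share was similar in related genes, 28.6% of 7 SLRPs outside the members and 20.0% of 5 other lecticans and link proteins. All 7 promoters of glycosaminoglycan linker enzymes exceeded 0.6, as did 93.3% of those of chondroitin and dermatan sulfate enzymes. Over the 6 libraries, OGN and PRELP, with no CG, had levels of 0.484 and 0.0611 FPKM, while BGN and ACAN, with 16 and 28, had 0.576 and 0.0228 FPKM.

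The comparison of LX-2FAP with LX-2Vector called none of the members. Over all 18275 tested genes, edgeR's quasi-likelihood test called 967 at an adjusted p under 0.05, or 5.29%, with 2.57% higher and 2.73% lower in LX-2FAP. Among the 6 tested members, 0 were called and 0 had an unadjusted p under 0.05, against 22.2% of all tested genes. The log2 fold change (LX-2FAP over LX-2Vector) was below 0 for 5 of the 6 members, against 53.0% of all tested genes. The median was -0.25 over the 6 and -0.01 over all tested genes. Normalized CPM did not overlap between the groups for 2 of the 6, DCN and BGN, both lower in LX-2FAP, against 26.4% of all tested genes in either direction and 13.4% lower.

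DCN had 1.17, 1.42 and 1.55 CPM in LX-2Vector replicates 1, 2 and 3, from 31, 25 and 33 counts. In LX-2FAP replicates 1, 2 and 3 it had 1.13, 1.06 and 0.955 CPM, from 27, 19 and 20 counts. Every LX-2FAP library was thus under the lowest LX-2Vector library, by a narrow margin between the replicates numbered 1. The means were 1.38 ± 0.192 and 1.05 ± 0.0863 CPM (SD, n = 3). The DCN log2 fold change was -0.38 (SE 0.22, 95% interval -0.85 to 0.09, edgeR adjusted p = 0.336), so levels in LX-2FAP from 0.555 to 1.06 times those in LX-2Vector lie within the interval.

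BGN, the closest relative of decorin and a known ligand of toll-like receptors, showed a similar set of values. It had 1.48, 1.71 and 1.504 CPM in LX-2Vector (39, 30 and 32 counts) and 1.46, 1.11 and 1.05 CPM in LX-2FAP (35, 20 and 22 counts). LX-2FAP replicate 1 lay just under the lowest LX-2Vector library, and the other 2 LX-2FAP libraries lay well under it. The BGN log2 fold change was -0.34 (SE 0.21, 95% interval -0.79 to 0.11, edgeR adjusted p = 0.368).

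LUM, a keratan sulfate proteoglycan first known from the cornea, varied more between replicates than between groups. It had 1.02, 1.37 and 0.752 CPM in LX-2Vector (27, 24 and 16 counts) and 0.876, 1.00 and 0.668 CPM in LX-2FAP (21, 18 and 14 counts). The groups overlapped, and the log2 fold change was -0.29 (SE 0.27, 95% interval -0.87 to 0.30, edgeR adjusted p = 0.593). OGN had 1.51, 2.05 and 2.73 CPM in LX-2Vector (40, 36 and 58 counts) and 1.63, 2.00 and 1.77 CPM in LX-2FAP (39, 36 and 37 counts). The LX-2FAP values all fell inside the LX-2Vector range, which LX-2Vector replicate 3 widened at the top. The OGN log2 fold change was -0.21 (SE 0.22, 95% interval -0.68 to 0.25, edgeR adjusted p = 0.628), and 0.04 without LX-2Vector replicate 3.

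ASPN, which competes with decorin for collagen and carries a run of aspartates near its start, had the smallest difference. It had 1.14, 1.37 and 1.13 CPM in LX-2Vector (30, 24 and 24 counts) and 1.08, 1.06 and 1.48 CPM in LX-2FAP (26, 19 and 31 counts). The highest and the lowest library were both LX-2FAP, and the log2 fold change was 0.01 (SE 0.23, 95% interval -0.47 to 0.49, edgeR adjusted p = 0.985), with the sign turned by some of the alternatives. The interval for ASPN still spans 0.723 to 1.41 times the LX-2Vector level, so changes within that range are not excluded.

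VCAN, the lectican of provisional and fibrotic matrix, had the most counts and the narrowest interval. It had 6.74, 8.09 and 8.74 CPM in LX-2Vector (178, 142 and 186 counts) and 8.26, 6.84 and 7.11 CPM in LX-2FAP (198, 123 and 149 counts). The groups overlapped, with LX-2Vector replicate 1 the lowest library of the 6. The VCAN log2 fold change was -0.07 (SE 0.12, 95% interval -0.32 to 0.19, edgeR adjusted p = 0.797), or 0.801 to 1.14 times the LX-2Vector level, and 0.03 without LX-2Vector replicate 3.

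**Figure D2:**
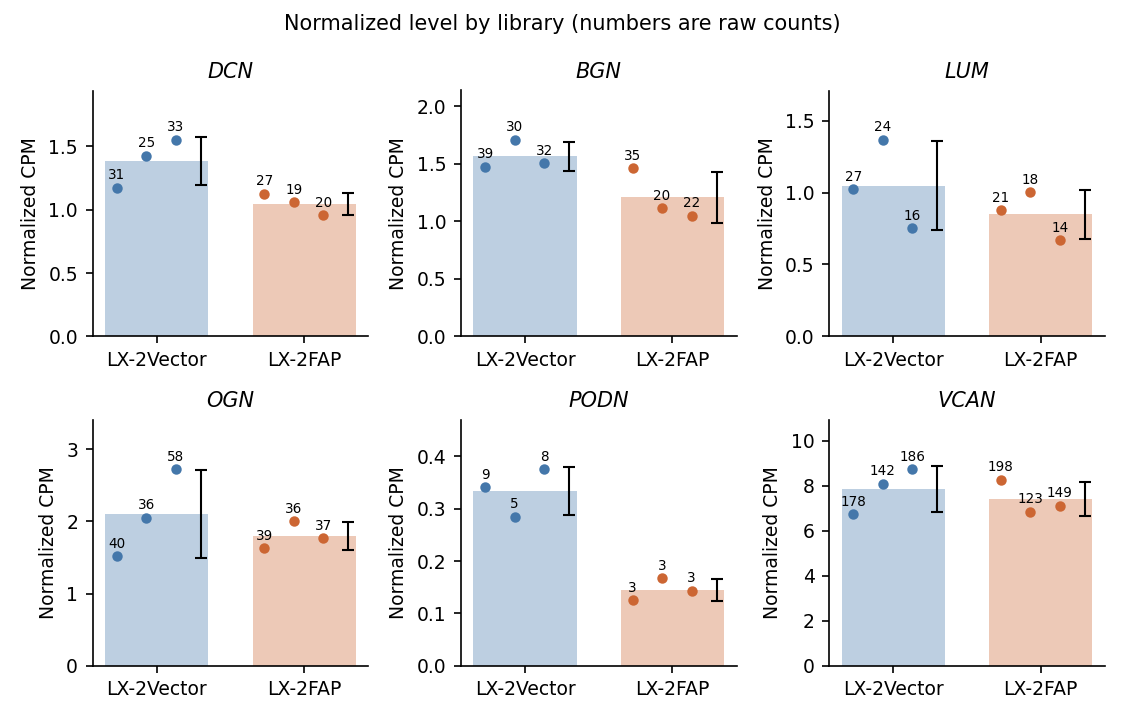
Normalized CPM (vertical axes, each from 0) of 6 members in LX-2Vector and LX-2FAP, where points are libraries labelled with their raw counts, bars are group means and the line at the right of each bar is the SD (n = 3). The groups do not overlap for DCN, BGN and PODN and overlap for LUM, OGN and VCAN. PODN was below the filter and not tested. ASPN, the only tested member with a log2 fold change above 0, is not shown, nor are PRELP, ACAN and FMOD.

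The remaining members were below the filter and were compared by their counts. PODN, an SLRP known from smooth muscle and vessel walls, had 9, 5 and 8 counts in LX-2Vector and 3, 3 and 3 counts in LX-2FAP. This was 0.341, 0.285 and 0.376 CPM against 0.125, 0.167 and 0.143 CPM, and the groups did not overlap. Among 22900 genes that had counts and were not tested, 4.40% were lower in LX-2FAP with no overlap. Genes of this set with no count in an LX-2Vector library cannot be lower in this way, which keeps the share low. Among tested genes it was 13.4%. Pooled over each group, the 22 and 9 counts of PODN gave exact 95% Poisson intervals of 0.211 to 0.511 and 0.0654 to 0.272 CPM, which cover counting error only and overlap. In the edgeR fit with no filter on low counts the PODN log2 fold change was -1.20 (SE 0.56, unadjusted p = 0.0308, adjusted p = 0.311). In PODN, 9.53% and 5.71% of the exon bases overlap 2 opposite-strand genes, both with 0 counts, so its count is uncertain.

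PRELP, which binds heparan sulfate of basement membranes, had 11, 7 and 7 counts in LX-2Vector and 6, 7 and 7 counts in LX-2FAP, and the groups overlapped in CPM. ACAN had 6, 7 and 4 counts in LX-2Vector and 6, 0 and 9 counts in LX-2FAP, so the highest and the lowest library were both LX-2FAP. With no filter, the log2 fold change was -0.26 for PRELP (SE 0.44, edgeR adjusted p = 0.843) and -0.13 for ACAN (SE 0.52, edgeR adjusted p = 0.942). FMOD had no count and no comparison.

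Summed over the 10 members, the level was 2.55, 3.15 and 2.94 FPKM in LX-2Vector and 2.50, 2.38 and 2.38 FPKM in LX-2FAP. Each LX-2FAP sum was under each LX-2Vector sum, while the sums in CPM, of which VCAN is the largest term, overlapped (14.0 to 17.3 against 13.6 to 15.1).

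Over the 6 libraries, the tested genes whose log2(CPM + 0.5) followed BGN most closely were PHLDB3, OSGEP and TCEAL4, with Pearson r of 0.995, 0.992 and 0.991, and 360 genes had an r above 0.9. For VCAN they were GSAP, ETAA1 and BMS1P1, with r of 0.988, 0.988 and 0.984, and 189 genes had an r above 0.9. With 6 points that share depth and group, these values describe likeness only.

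SLRPs outside the 10 members were also mostly low, and 2 of them, TSKU and CHAD, had a mean above 1 FPKM. Of 10 further SLRP genes, KERA, EPYC and NYX were at 0 in all libraries, 5 were tested and 0 were called. All 5 had a log2 fold change below 0, against 53.0% of all tested genes. TSKU, which encodes tsukushi, a liver-secreted SLRP, was at 11.6, 10.9 and 13.8 FPKM in LX-2Vector and 11.1, 8.61 and 9.18 FPKM in LX-2FAP. In each library TSKU alone was 4.25 to 5.93 times the summed FPKM of the SLRP members, and its mean exceeded that of 76.3% of protein-coding genes with a count.

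LX-2FAP replicate 1 fell within the LX-2Vector range for TSKU, and the other 2 LX-2FAP libraries fell under it. The TSKU log2 fold change was -0.29 (SE 0.09, edgeR unadjusted p = 0.00526, adjusted p = 0.0692). It was called lower in 3 of the 14 alternatives, with an adjusted p of 0.0479 under library size alone, 0.000181 with no filter and 0.00633 without LX-2FAP replicate 1, and its largest adjusted p among the 14 was 0.279. CHAD (chondroadherin) followed at 1.23 FPKM and ECM2 at 0.526 FPKM, with edgeR adjusted p = 0.718 and 0.941. CHAD lies within ACSF2 on the opposite strand and shares 14.98% of its exon bases with it, so its count is uncertain.

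Of 6 other lecticans and link proteins, which clamp lecticans to hyaluronan, 2 were tested and 0 were called. HAPLN3, a link protein, had 0.988 FPKM, more than any lectican, and a difference of -0.31 on the log2 scale (SE 0.16, edgeR adjusted p = 0.271). BCAN, the brain lectican brevican, had 17, 10 and 13 counts in LX-2Vector and 6, 8 and 5 counts in LX-2FAP with no overlap in CPM. Its log2 fold change was -1.004 (SE 0.35, edgeR unadjusted p = 0.012, adjusted p = 0.105). BCAN shares 6.65% and 7.18% of its exon bases with 2 antisense genes. These had 25 to 55 and 1 to 7 counts per library, so the count of BCAN is uncertain. NCAN (neurocan) and HAPLN2 were each at 0.0123 FPKM, and HAPLN1 and HAPLN4 had no count.

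The enzymes that build the chains of these proteoglycans had higher median levels than the core proteins, although some single enzymes lay below BGN. All 7 genes of the linker between core protein and chain were tested, at 1.49 to 24.1 FPKM, and 0 were called. FAM20B, the xylose kinase, had 24.1 FPKM, XYLT2, a xylosyltransferase that starts the linker, 12.1 FPKM and B3GAT3, which adds the closing glucuronic acid, 11.0 FPKM. Of 16 chondroitin and dermatan sulfate enzymes, 15 were tested and 0 were called. An unadjusted edgeR p under 0.05 was seen for 5 of the 15, against 22.2% of all tested genes. CSGALNACT2, which starts the chondroitin chain, had 20.5 FPKM, CHPF2, a polymerizing factor, 13.6 FPKM and CHST14, the dermatan 4-sulfotransferase, 12.05 FPKM. CHST14 had the smallest adjusted p of the list, 0.0872, with a log2 fold change of -0.20 (SE 0.07, edgeR).

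Of 9 genes for keratan sulfate synthesis, 6 were tested and 0 were called. Against 22.2% of all tested genes, 3 of the 6 had an unadjusted edgeR p under 0.05. These were B3GNT2 (16.9 FPKM, log2 fold change 0.16, edgeR adjusted p = 0.122), FUT8 (16.8 FPKM, 0.11, edgeR adjusted p = 0.158) and B4GALT1 (15.7 FPKM, -0.15, edgeR adjusted p = 0.084), which also act on other glycans. The sulfotransferases CHST5 and CHST6 had 1 to 6 and 6 to 29 counts and were not tested. Of 7 proteoglycan-cleaving ADAMTS proteases, 4 were tested and 0 were called. Against 22.2% of all tested genes, 2 of the 4 had an unadjusted edgeR p under 0.05. ADAMTS1, which cleaves versican and aggrecan, led at 8.46 FPKM, with a difference of 0.27 on the log2 scale (SE 0.10, edgeR adjusted p = 0.124). It was called higher in 2 of the 14 alternatives, no filter and without LX-2FAP replicate 1. The other of the 2, ADAMTS15, named here after its values were seen, had 0.341 FPKM and differed by -0.60 on the log2 scale (SE 0.23, edgeR adjusted p = 0.135). ADAMTS9 had 0.734 FPKM and ADAMTS4 0.576 FPKM (edgeR adjusted p = 0.415 and 0.804), while ADAMTS5, the other main aggrecanase, had 1 to 5 counts.

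**Figure D3:**
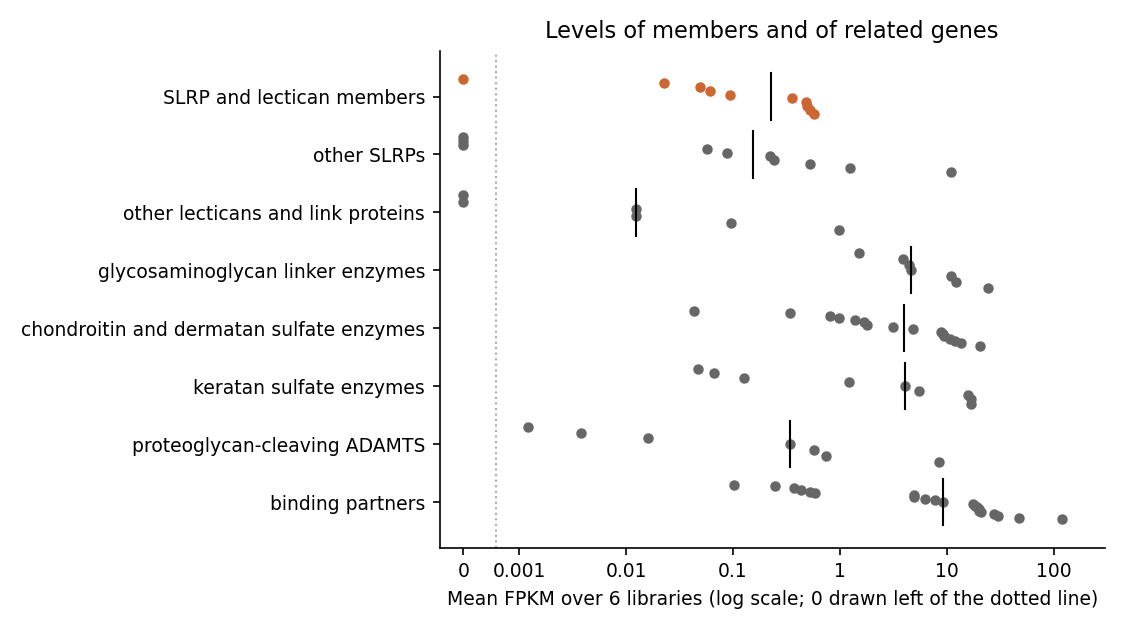
Mean FPKM over the 6 libraries (horizontal log axis, with 0 drawn at the left of the dotted line) of each member and of each gene in 7 related lists, where points are genes and vertical lines are list medians. The members reach 0.576 FPKM at most, whereas the medians of the linker, chondroitin and dermatan sulfate, and keratan sulfate enzymes are 4.57, 3.99 and 4.08 FPKM.

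Among the 7 related lists, calls were made only in the list of proteins that SLRPs and lecticans bind. All 21 binding partners (collagens, other matrix proteins, growth factors and receptors) were tested, and 10 were called, 1 higher and 9 lower, or 47.6% against 5.29% of all tested genes. Their median log2 fold change was -0.21. The list was chosen with results of these data known and holds abundant genes, so the count is a description. Among the cell type markers, 1 of 11 tested stellate markers was called higher (VIM) and 3 lower (COL3A1 and COL1A1, which are also binding partners, and PDGFRB), and 1 of 3 tested endothelial markers was called lower (VWF), while 0 hepatocyte, leukocyte and epithelial markers were called. These markers were named by their calls, and their part in the calls of binding partners was not tested.

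COL6A2, a chain of collagen VI, which binds decorin and biglycan, fell from 105.5 ± 6.86 to 80.5 ± 5.34 CPM (SD, n = 3), with no overlap between the groups. The COL6A2 log2 fold change was -0.39 (SE 0.06, edgeR adjusted p = 0.00386), and the call held whichever of the 6 libraries was left out. COL3A1, a fibrillar collagen, had 39.6, 37.8 and 47.7 CPM in LX-2Vector and 31.6, 19.9 and 25.2 CPM in LX-2FAP, and fell by 0.69 on the log2 scale (SE 0.12, edgeR adjusted p = 0.00765). FBLN2, the gene for fibulin 2, which binds the carboxyl end of versican and aggrecan, fell by 0.40 (SE 0.07, edgeR adjusted p = 0.00774). COL3A1 and FBLN2 were not called without LX-2FAP replicate 3, where their adjusted p-values were 0.0693 and 0.0748. The other genes called lower, which the rule for named genes covers only for COL1A1, were LRP1, COL1A1, COL6A1, IGF1R, COL5A1 and FN1. FN1 had an adjusted p of 0.0498, and 0.0515 with DESeq2 size factors, and it was called in 7 of the 14 alternatives. The DESeq2 Wald test did not call COL1A1 (adjusted p = 0.0513) or COL5A1 (0.165).

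CD44, a receptor for hyaluronan and chondroitin sulfate proteoglycans, rose in LX-2FAP. It had 110.2, 114.5 and 114.1 FPKM in LX-2Vector and 125.3, 126.6 and 125.6 FPKM in LX-2FAP, with no overlap. The log2 fold change was 0.18 (SE 0.03, edgeR adjusted p = 0.00957), and CD44 was not called without LX-2FAP replicate 2 (adjusted p = 0.0514) or replicate 3 (0.0872). MET, a receptor that decorin binds, was at 47.7 FPKM and was not called (log2 fold change 0.11, SE 0.04, edgeR adjusted p = 0.118).

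COL1A1, a main ligand of decorin, lumican and fibromodulin, was at 29.9 FPKM over the 6 libraries and fell by 0.40 on the log2 scale (SE 0.08, edgeR adjusted p = 0.0135). COL1A1 was not called without LX-2Vector replicate 1 (adjusted p = 0.0543), LX-2FAP replicate 2 (0.0555) or LX-2FAP replicate 3 (0.0864). COL1A2, named here after its values were seen, encodes the other chain of type I collagen and was at 0.102 FPKM, with 13 to 33 counts. Of the 21, 4 were called without LX-2FAP replicate 2 and only COL6A2 when replicate 3 was left out, and limma-trend on FPKM called 0. The member intervals are wide beside these changes. A log2 fold change of -0.40, as for COL1A1, lies within the 95% interval of DCN, BGN, LUM, ASPN and OGN and outside that of VCAN.

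**Figure D4:**
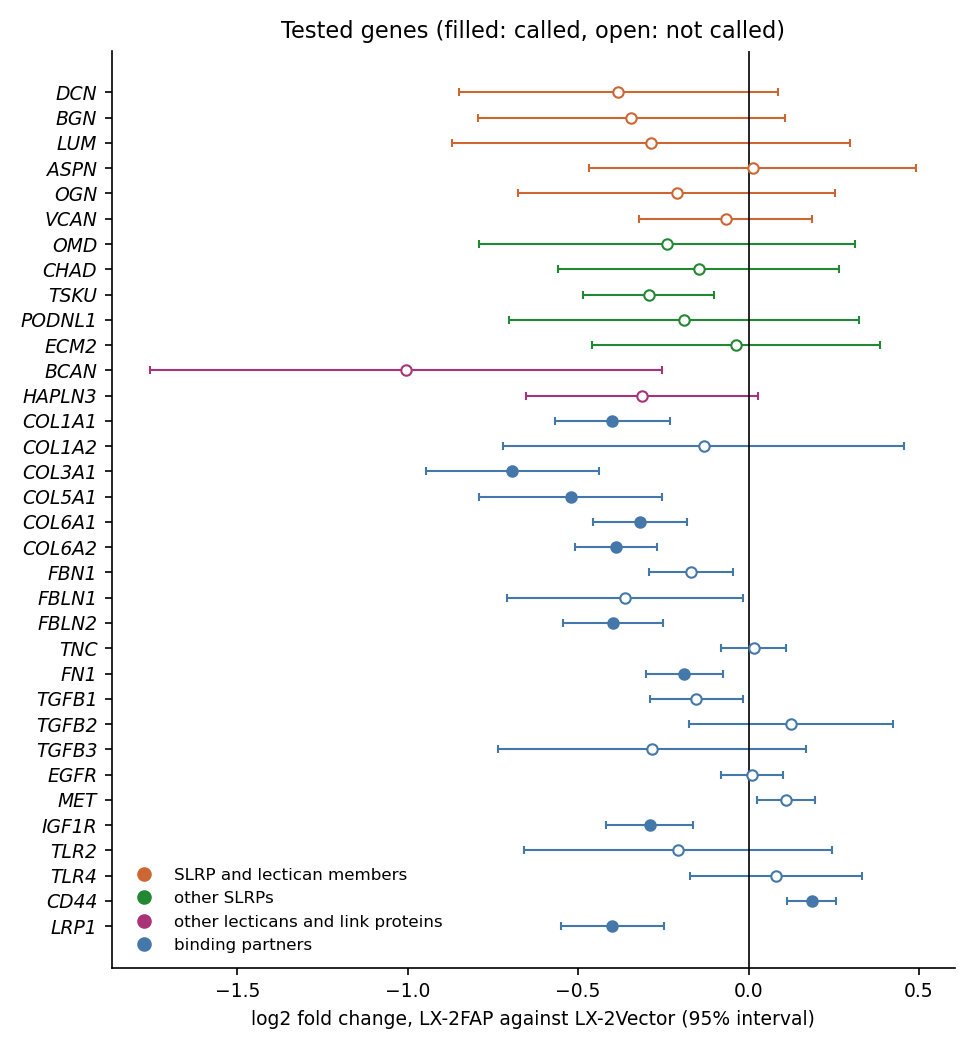
Log2 fold change of LX-2FAP against LX-2Vector (horizontal axis) with its 95% interval for the tested members, other SLRPs, other lecticans and link proteins, and binding partners, where filled points mark genes that edgeR called (adjusted p under 0.05). All 6 member intervals cross 0, and the called genes are binding partners, COL3A1 lowest at -0.69 and CD44 highest at 0.18.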

How the data were processed

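RNA was sequenced in 6 libraries of LX-2 cells, grouped by sample title. The labels and the methods describe ribosomal RNA depletion, and the methods also a poly(A) step, so the RNA classes kept are not settled. Per the labels, the authors used HISAT2 2.0.5 and featureCounts, and their notes also list DESeq2 1.16.1, edgeR and the build hg18, although the table holds Ensembl identifiers. Coordinates and exon overlaps here are from GENCODE release 29 (GRCh38). Its gene lengths differ for some genes from those used for the deposited values. The authors deposited raw counts per gene and FPKM values, which they computed from counts and gene length. Use of strand is not given in the sources used here. Every column of values was matched to its sample by name. The deposited functional annotation was not used here.

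Counts were tested with edgeR 4.0.16 (quasi-likelihood, TMM, default expression filter with a minimum count of 10 and a minimum total of 15, R 4.3.3), without covariates, and adjusted by the Benjamini-Hochberg method over 18275 tested genes. Genes with an adjusted p under 0.05 were called. Normalized CPM used TMM library sizes. SEs were derived from the test statistic, and p-values are 2-sided. No exact permutation test was run, since 3 libraries against 3 allow no p below 0.1. The fit was also run on simulated data, which are not used here as support for any result. Total counts ran from 17355700 to 26352060, and replicate pairs had a chi-square per degree of freedom of 1.90 to 4.30, above counting noise. The titles share replicate numbers. Deviations of same-numbered libraries from their group means correlated at -0.04 to 0.04, so the numbers were not taken as pairs.

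The members, the 7 related lists (76 genes) and the markers were chosen with earlier results of these data known. Named genes are the members, FAP, in each list the genes called (if over 6, the 3 with the smallest p in each direction) and the 3 with the highest FPKM, and the 3 genes most correlated with BGN and with VCAN; other names were added after their values were seen. Alternatives were a block for the replicate number, leaving out each library in turn, no filter on low counts, a filter of at least 10 counts per library, library size in place of TMM, size factors from DESeq2 1.42.0, its Wald test, and limma-trend (limma 3.58.1) on log2(FPKM + 0.1) or log2(FPKM + 1).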

Additional observations from a re-analysis of the deposited data

How the results depend on the processing

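No member was called under any of the 14 alternatives. Of 79 adjusted p-values for the tested members, the smallest was 0.204 (BGN), and 2 fits gave an unadjusted p under 0.05. DESeq2 gave no adjusted p for 5 of the 6 tested members. ASPN turned sign under library size alone (-0.016), log2(FPKM + 1) (-0.012) and log2(FPKM + 0.1) (-0.035). Without 1 library each, the log2 fold change ran from -0.16 to 0.10 for ASPN, from -0.43 to 0.045 for OGN and from -0.18 to 0.030 for VCAN. DCN, BGN and LUM kept a negative sign in every alternative. With the replicate number as a block, 975 genes were called, 0 of them members, and no call in a list changed in number. FAP was called in all alternatives.

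Over all genes, limma-trend called 2 genes with each pseudocount (1 higher, 1 lower) and 0 binding partners, and the cause was not tested. With no filter, 1606 genes were called (929 lower), with 1 other SLRP and 1 ADAMTS gene. Library size alone gave 239 higher and 809 lower, with 1 other SLRP and 1 keratan sulfate gene. Without 1 library, genes called ran from 26 to 1949 (14 to 892 higher, 12 to 1057 lower), lowest without LX-2FAP replicate 3 and highest without LX-2FAP replicate 1. Binding partners called then ran from 1 to 12, other SLRPs from 0 to 1, and chondroitin and dermatan sulfate, keratan sulfate and ADAMTS genes each from 0 to 2. In the order by level, 2 of 10 members kept their place by CPM, and 4 to 8 without 1 library. Counts were few for the members, of which 4 of 10 were below the filter and VCAN alone exceeded 58 counts in a library.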
